A study of Capra hircus with 6 samples.

Results

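Expression of 9 genes known from the choroid plexus, TTR, KL, CLIC6, FOLR1, AQP1, OTX2, ENPP2, SLC4A5 and PRLR, was followed in the hypothalamus of goats before and at puberty. The 9 genes were selected on their FPKM in these 6 libraries together with their known place of expression, so their levels are given as a description and no test is read from them. The FPKM of all transcripts of a gene was summed in each library, and all 9 were found among the 20225 genes of the mRNA table. FPKM counts sequenced fragments relative to transcript length and to all mapped fragments of the library. A mean of at least 0.1 FPKM over the 6 libraries was required for a gene to be tested, which 16397 genes passed, the 9 among them.

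Hypothalamus RNA came from 3 pubertal female Anhuai goats of 4.5 to 5 months and from 3 prepubertal female Anhuai goats of 2.5 to 3 months, with 1 strand-specific library for each goat after removal of ribosomal RNA. The goats of both stages were kept alike on 1 farm. Stage was assigned from behaviour towards bucks and external signs, and tissue of the pubertal goats was taken late in the follicular phase, so age, body size and cycle phase cannot be told apart from stage. The hypothalamus was sequenced as whole tissue, with the neuron markers SNAP25 and SLC17A6 at 466 FPKM or more and 80.7 FPKM or more in each library, in which fewer cells of a type and less RNA per cell cannot be told apart.

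The choroid plexus is a fringe of secretory epithelium in the brain ventricles, the third ventricle beside the hypothalamus included, and it makes cerebrospinal fluid. Its epithelium secretes transthyretin, the product of TTR, which carries thyroxine and, through retinol-binding protein, retinol in the fluid. Its membranes hold water channels, bicarbonate carriers and receptors that move folate and hormones between blood and fluid, and the homeodomain factor OTX2 is needed for its development. Several of these genes are also used elsewhere, ENPP2 by oligodendrocytes, KL and PRLR by neurons, OTX2 by the pineal gland and TTR by the liver.

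Pubertal replicate 3 stood apart from the other libraries. In it, 294 of the 16397 genes tested (1.79%) lay at least 1 on the log2(FPKM + 1) scale above the median of the other 5 libraries, against between 34 and 78 genes in each of the other libraries. Of the leptomeningeal markers, genes of the fibroblasts that cover the brain, 9 of 12 were that high in pubertal replicate 3, as were 4 of 10 pituitary markers, and the summed FPKM of the 12 leptomeningeal markers was 491 in this library and between 121 and 224 in the others. The files hold no counts, so a value listed at 0 was not taken as absence of expression. Differences between the stages are therefore given with and without pubertal replicate 3 where they rest on it.

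TTR varied over a wider range than all but 8 of the 16397 genes tested. It had 6.95, 1.14 and 309 FPKM in pubertal replicates 1, 2 and 3, and 53.4, 11.9 and 3.88 FPKM in prepubertal replicates 1, 2 and 3. The highest library was a pubertal goat, the second highest a prepubertal goat and the lowest again a pubertal goat, so the stages overlapped fully. The highest value was 272-fold the lowest and 5.78-fold the next one. The pubertal goats averaged 106 ± 176 FPKM and the prepubertal goats 23.1 ± 26.6 FPKM (SD, n = 3 each), each SD exceeding its mean. The medians stood in the opposite order, at 6.95 FPKM for the pubertal and 11.9 FPKM for the prepubertal stage. On the log2(FPKM + 1) scale the pubertal mean was higher by 0.21 (standard error 1.67). Without pubertal replicate 3 the same difference was -1.87, and without prepubertal replicate 3 it was -0.60, so the direction was decided by single goats.

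**Figure D1:**
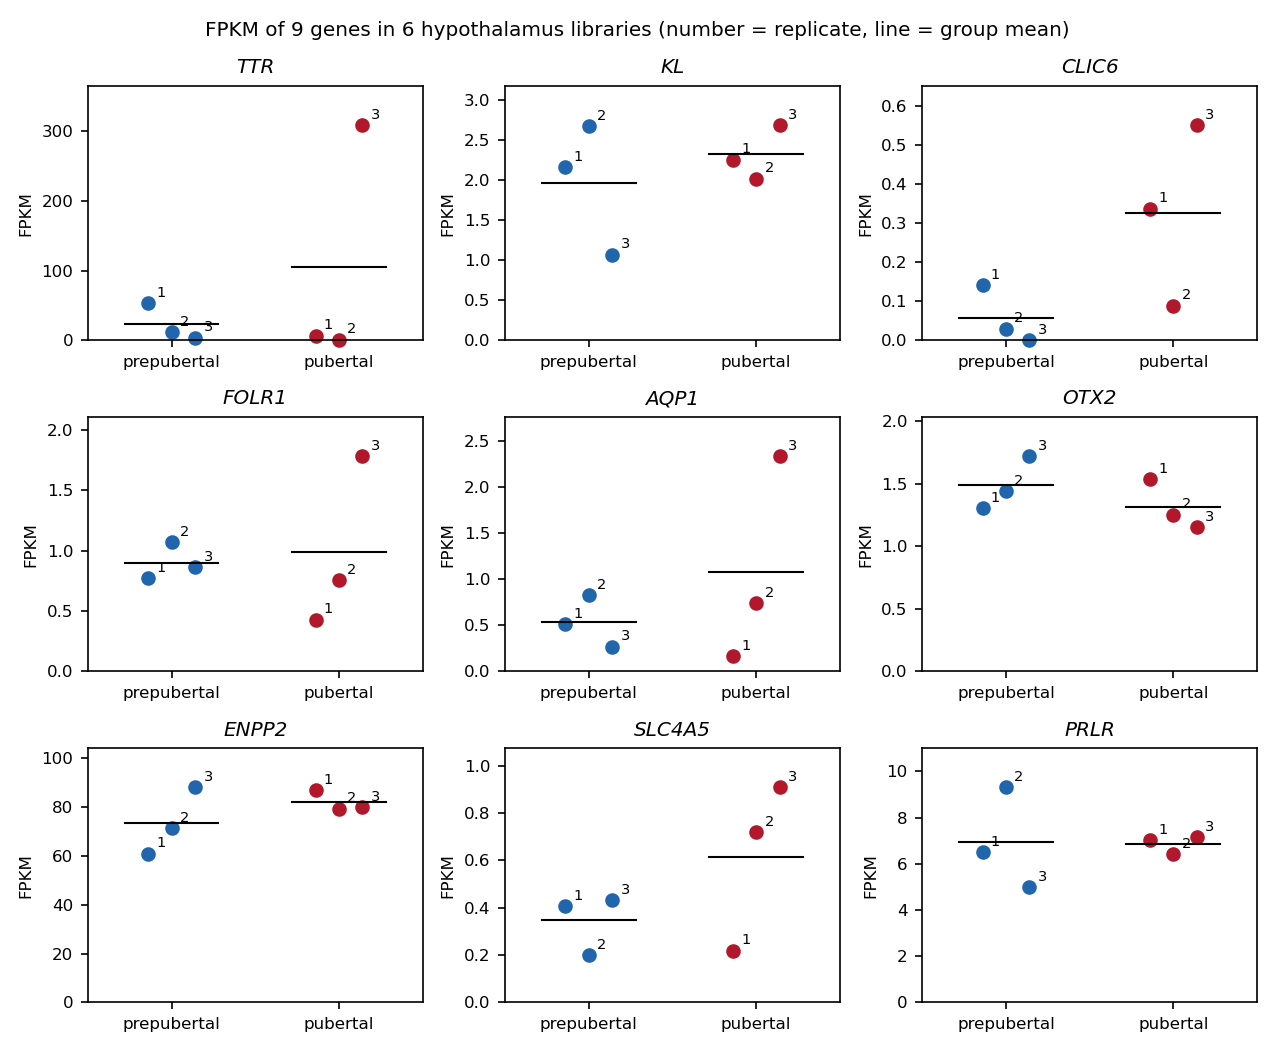
FPKM of each of the 9 genes (vertical axis, linear and starting at 0, a scale of its own for each gene) in the 3 prepubertal and 3 pubertal libraries. Points are single goats numbered by replicate and lines are group means; TTR reaches 309 FPKM in pubertal replicate 3, and the stages overlap for all 9 genes.

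Most of the 9 genes were low in these libraries. Of the 9 genes, 7 had a mean under 10 FPKM and 4 a mean under 1 FPKM. ENPP2 was highest by its mean over the 6 libraries, at 77.9 FPKM, followed by TTR at 64.4, PRLR at 6.90, KL at 2.15, OTX2 at 1.40, FOLR1 at 0.944, AQP1 at 0.809, SLC4A5 at 0.482 and CLIC6 at 0.192 FPKM. FPKM is scaled by transcript length, so these levels can be set side by side. Among neighbours in this order, only PRLR and KL had ranges over the libraries that did not overlap, PRLR being higher in 6 of 6 libraries. TTR lay below ENPP2 in 5 of 6 libraries, and it lay above PRLR in 3 of 6. TTR made up 76.2% of the summed FPKM of the 9 genes in pubertal replicate 3 and 42.3% in prepubertal replicate 1, but 1.23% in pubertal replicate 2.

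AQP1, SLC4A5 and CLIC6, the transport genes among the 9, each had a mean under 1 FPKM. AQP1, the water channel of the surface that faces the fluid, had 0.162, 0.743 and 2.34 FPKM in pubertal replicates 1, 2 and 3 and 0.514, 0.830 and 0.268 FPKM in prepubertal replicates 1, 2 and 3. Its highest and its lowest library were both pubertal. The difference between the stages was 0.31 (standard error 0.35) on the log2(FPKM + 1) scale, and it was -0.10 without pubertal replicate 3. SLC4A5, a sodium bicarbonate cotransporter, had 0.219, 0.720 and 0.912 FPKM in the pubertal libraries and 0.408, 0.201 and 0.433 FPKM in the prepubertal libraries, in the order of the replicates. Pubertal replicates 2 and 3 lay above all prepubertal libraries and pubertal replicate 1 below 2 of them. CLIC6, of the chloride intracellular channel family, had 0.338, 0.0894 and 0.553 FPKM in the pubertal libraries, had 0.142 and 0.0300 FPKM in prepubertal replicates 1 and 2, and was listed at 0 in prepubertal replicate 3. Pubertal replicates 1 and 3 lay above all prepubertal libraries, while pubertal replicate 2 lay below prepubertal replicate 1. The log2(FPKM + 1) difference was 0.24 (standard error 0.18) for SLC4A5 and 0.31 (standard error 0.15) for CLIC6, and it kept its sign when each library was left out in turn. Without pubertal replicate 3 the differences were 0.11 and 0.19. With all 6 libraries and a pseudocount of 0.1 in place of 1 they were 0.57 and 1.37.

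Receptors were represented by FOLR1, KL and PRLR. FOLR1, the folate receptor that passes folate into the cerebrospinal fluid, had 0.428, 0.757 and 1.78 FPKM in pubertal replicates 1, 2 and 3 and 0.770, 1.07 and 0.861 FPKM in prepubertal replicates 1, 2 and 3. The pubertal goats enclosed the prepubertal goats from both sides, and the means were 0.990 ± 0.707 and 0.899 ± 0.152 FPKM (SD, n = 3 each). The log2(FPKM + 1) difference of FOLR1 was 0.01 (standard error 0.23), and -0.26 without pubertal replicate 3. KL, the co-receptor through which FGF23 signals, had 2.26, 2.02 and 2.70 FPKM in the pubertal libraries and 2.16, 2.68 and 1.07 FPKM in the prepubertal libraries. Pubertal replicate 3 and prepubertal replicate 2 were nearly equal at the top, and only prepubertal replicate 3 was clearly lower. Its difference of 0.20 (standard error 0.21) was -0.04 without prepubertal replicate 3.

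PRLR, the prolactin receptor, had 7.02, 6.43 and 7.15 FPKM in pubertal replicates 1, 2 and 3 and 6.51, 9.33 and 4.98 FPKM in prepubertal replicates 1, 2 and 3. The prepubertal goats held both the highest and the lowest value. The pubertal goats averaged 6.87 ± 0.381 FPKM and the prepubertal goats 6.94 ± 2.21 FPKM (SD, n = 3 each), with a log2(FPKM + 1) difference of 0.02 (standard error 0.19). PRLR was the only one of the 9 genes with more than 1 transcript in the table, with 8, of which 7 were above 0 in some library. The most abundant, XM_013972805.1 of 11190 nt, had 3.58, 1.84 and 2.16 FPKM in the pubertal libraries and 3.12, 4.43 and 2.74 FPKM in the prepubertal libraries. XM_013972808.1, far shorter at 2162 nt, made up between 15.5% and 36.9% of the FPKM of the gene. XM_013972803.1 of 11700 nt had 1.20, 1.51 and 3.19 FPKM in pubertal replicates 1, 2 and 3 and 0.899, 0.00320 and 0.00802 FPKM in prepubertal replicates 1, 2 and 3. All 3 pubertal values of XM_013972803.1 lay above all 3 prepubertal values. By FPKM summed per gene, 9.75% of all genes tested also had stages without overlap, and no such share was computed over single transcripts. The gap was narrow, between 1.20 FPKM in pubertal replicate 1 and 0.899 FPKM in prepubertal replicate 1. The share of this transcript in the gene was 44.6% in pubertal replicate 3 against 0.03% in prepubertal replicate 2. The long transcripts differ in length by little, and how the authors' software divided shared reads among them was not tested.

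**Figure D2:**
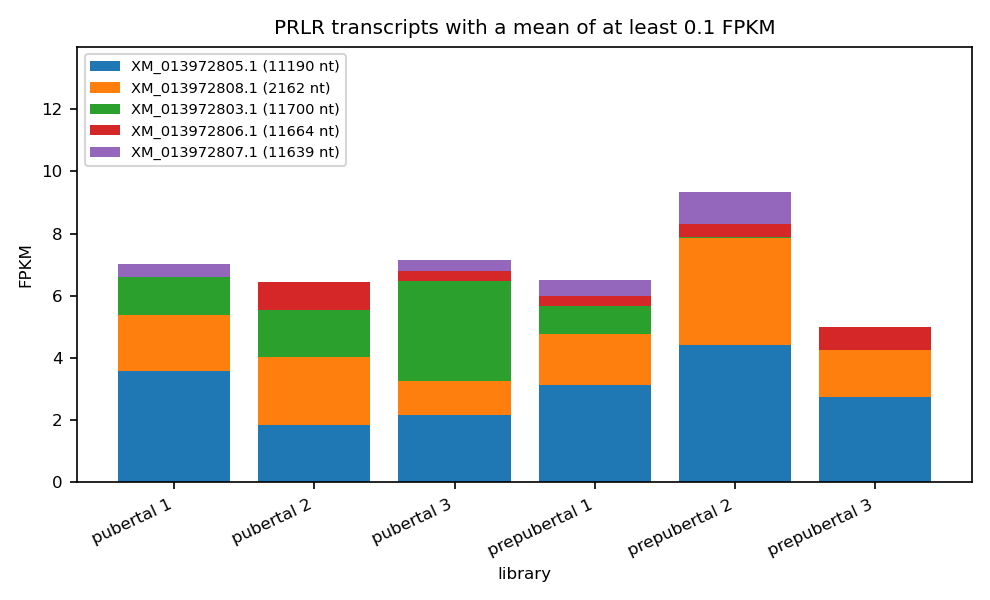
FPKM of each PRLR transcript averaging 0.1 FPKM or more (stacked bars, linear axis) in each of the 6 libraries. The segment of XM_013972803.1 is visible in all 3 pubertal libraries and in prepubertal replicate 1, and is too thin to see in prepubertal replicates 2 and 3, at 0.00320 and 0.00802 FPKM.

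ENPP2 and OTX2 were the steadiest of the 9 genes. ENPP2 encodes autotaxin, a secreted enzyme that makes lysophosphatidic acid, and had 87.1, 79.4 and 80.1 FPKM in the pubertal libraries and 61.0, 71.3 and 88.3 FPKM in the prepubertal libraries, in the order of the replicates. Its highest value was 1.45-fold its lowest, and its lowest library, prepubertal replicate 1, was the second highest for TTR. The log2(FPKM + 1) difference was 0.17 (standard error 0.13), and 0.05 without prepubertal replicate 1. OTX2 had 1.54, 1.25 and 1.15 FPKM in the pubertal libraries and 1.30, 1.44 and 1.72 FPKM in the prepubertal libraries. Pubertal replicate 3 was the lowest library for OTX2 and the highest for TTR. Its difference of -0.10 (standard error 0.12) kept its sign with each library left out.

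Over all genes tested, limma was used to compare the stages, a linear model that borrows information on the spread from all genes. After Benjamini-Hochberg adjustment, 0 of 16397 genes (0%) had an adjusted p-value under 0.05 in limma, and so did 0 of the 9 genes. At an unadjusted p-value under 0.05, 575 genes (3.51%) were higher and 271 (1.65%) lower in pubertal goats, and of the 9 genes 0 were higher and 0 lower. The stages did not overlap for 1598 genes (9.75%), and overlapped for each of the 9. Since these values also chose the 9 genes, nothing is read from the counts. Limma gave 8 of the 9 genes a pubertal mean above the prepubertal one, against 49.8% of all genes tested, with a median difference of 0.20, and without pubertal replicate 3 the median was -0.0042. Without a single library the sign changed for TTR, KL, AQP1, FOLR1 and PRLR and was kept for CLIC6, SLC4A5, ENPP2 and OTX2.

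**Figure D3:**
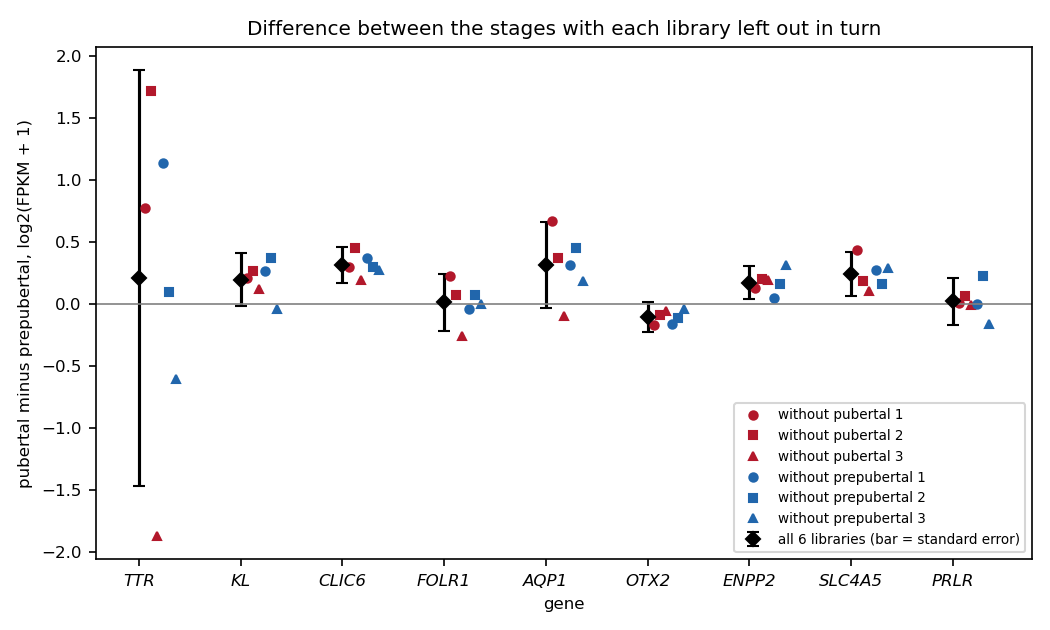
Difference between the stages, pubertal minus prepubertal mean of log2(FPKM + 1), for each of the 9 genes. Black diamonds use all 6 libraries with the standard error of limma as bars, and coloured symbols leave out 1 library each; TTR runs from -1.87 to 1.72, while OTX2 stays below 0 and ENPP2 above 0.

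The 9 genes were then compared library by library. Pubertal replicate 3 was the highest library for TTR, KL, CLIC6, FOLR1, AQP1 and SLC4A5, which is 6 of 9 genes, against 22.0% of all genes tested. At least 1 on the log2 scale above the median of the other libraries were 2 of the 9 in pubertal replicate 3, TTR and AQP1, where 1.79% of all genes were. In prepubertal replicate 1 this held for 1 of the 9, TTR itself, where 0.238% of all genes were that high. The 9 genes were chosen on these values, so nothing is read from these shares. Over the 6 libraries, which share this 1 high library, Pearson r of log2(FPKM + 1) with TTR was 0.71 for AQP1, 0.70 for FOLR1, 0.70 for CLIC6, 0.52 for KL, 0.37 for SLC4A5, 0.26 for PRLR, -0.37 for ENPP2 and -0.56 for OTX2. With the 5 libraries other than pubertal replicate 3, r was 0.0063 for AQP1, 0.10 for FOLR1, 0.17 for CLIC6, 0.36 for KL, -0.48 for SLC4A5, 0.28 for PRLR, -0.79 for ENPP2 and -0.17 for OTX2. Spearman rho over 6 libraries was 0.49 for AQP1, 0.60 for FOLR1, 0.60 for CLIC6, 0.77 for KL, 0.029 for SLC4A5, 0.66 for PRLR, -0.37 for ENPP2 and -0.43 for OTX2. Among the other genes, the closest pairs were AQP1 with FOLR1 at r = 0.92 and KL with PRLR at r = 0.88.

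Other genes of the choroid plexus epithelium were taken as a list that holds none of the 9. Of 36 genes listed, 31 could be tested. In limma 0 of the 31 had an adjusted p-value under 0.05, while 5 were higher and 2 lower at an unadjusted p-value under 0.05, against 3.51% and 1.65% of all genes. The median difference was 0.19, against -0.00065 over all genes tested, and it was 0.087 without pubertal replicate 3. In 9 of the 31 the stages did not overlap, 7 higher and 2 lower in pubertal goats, which is 29.0% against 9.75% of all genes. The list was chosen with earlier results of these data known, so nothing is read from these shares.

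Of the 31 genes, 9 lay at least 1 on the log2 scale above the median of the other libraries in pubertal replicate 3, against 0 in prepubertal replicate 1, the other library with much TTR. The 9 were IGFBP2, IGF2, KRT8, KCNJ13, CDH1, SLC13A4, KRT18, COL8A1 and MFRP. A gene under 1 FPKM in a library cannot lie that high on the log2(FPKM + 1) scale. MFRP had 1.20 FPKM in pubertal replicate 3 and 0.365 FPKM in prepubertal replicate 1, its highest libraries. It had between 0.0166 and 0.103 FPKM in the others. IGF2, a growth factor that choroid plexus and meninges secrete, had 15.3 FPKM in pubertal replicate 3, against between 0.22 and 0.67 FPKM in the others. IGFBP2, which binds it, had 73.6 FPKM in that library and between 2.41 and 5.18 FPKM in the others. KRT8, a keratin of simple epithelia, had 1.12, 1.61 and 13.4 FPKM in pubertal replicates 1, 2 and 3, was listed at 0 in prepubertal replicate 1, and had 0.51 and 0.30 FPKM in prepubertal replicates 2 and 3. The log2(FPKM + 1) differences of KRT8, IGFBP2 and IGF2 were 1.78, 1.67 and 1.41 (standard errors 0.64, 0.87 and 0.80), and 0.91, 0.46 and 0.28 without pubertal replicate 3. KCNJ13, a potassium channel of the plexus, had 14.4 FPKM in pubertal replicate 3 and 1.70 FPKM in prepubertal replicate 1, within the 1.43 to 1.86 FPKM of the remaining libraries. IGFBP2 also stands in the leptomeningeal list. Leptomeningeal and pituitary markers were high in this library too, and what part either tissue had in the values of the 9 genes was not tested.

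The 3 genes of the list with the highest means varied little between libraries. SPINT2, a protease inhibitor, had between 93.0 and 104 FPKM in the 6 libraries. TRPM3, a cation channel, had between 61.1 and 72.6 FPKM, and SLC4A10, a bicarbonate transporter also found in neurons, had between 43.6 and 61.2 FPKM with its lowest value in pubertal replicate 3. WFDC2, a secreted protein of epithelia, went the other way from the keratins, with 7.06, 3.91 and 4.56 FPKM at puberty and 9.62, 16.4 and 9.89 FPKM before it, by replicate, without overlap. The difference of WFDC2 was -1.06 (standard error 0.24). HTR2C and CLDN3 had their lowest values in pubertal replicate 3, at 8.63 and 2.02 FPKM. HTR2C was lower in pubertal goats without overlap, with a difference of -0.32 (standard error 0.13). TMEM72 and SOSTDC1, at 1.28 and 2.38 FPKM in pubertal replicate 3, were highest in pubertal replicate 1 and prepubertal replicate 2.

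**Figure D4:**
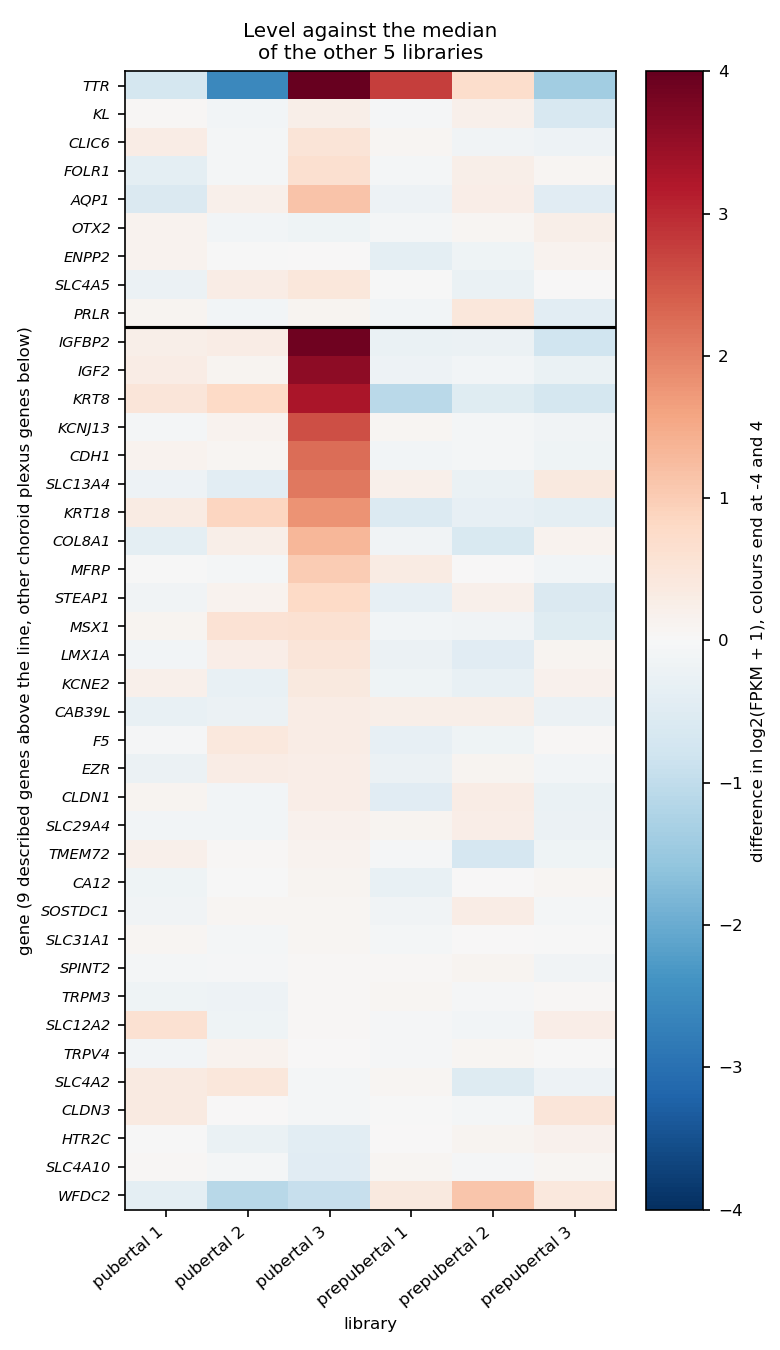
Level of each gene in each library minus the median of the other 5 libraries, as a difference in log2(FPKM + 1) (colour, ending at -4 and 4). The 9 genes stand above the black line and 31 other choroid plexus genes below it, sorted by pubertal replicate 3. TTR is high in pubertal replicate 3 and prepubertal replicate 1. Of the 31 genes, 9 reach at least 1 in pubertal replicate 3 and 0 in prepubertal replicate 1, where MFRP reaches 0.33.

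Partners of TTR in handling thyroid hormone and retinol gave 0 of 16 tested genes with an adjusted p-value under 0.05 in limma, and 0 were higher and 1 lower at an unadjusted p-value under 0.05, against 3.51% and 1.65% of all genes. Their median difference was 0.051, and 0.0090 without pubertal replicate 3. RBP4, the retinol-binding protein that transthyretin carries, had 50.4, 73.4 and 115 FPKM in pubertal replicates 1, 2 and 3 and 62.2, 65.8 and 76.1 FPKM in prepubertal replicates 1, 2 and 3. The difference of RBP4 was 0.15 (standard error 0.26), and -0.15 without pubertal replicate 3. STRA6, the membrane receptor for that complex, had 4.09 FPKM in pubertal replicate 3, against between 0.50 and 0.93 FPKM in the others, and its difference went from 0.53 (standard error 0.39) to 0.0074 without that library. SLC16A10, a thyroid hormone carrier, had 4.09 FPKM in pubertal replicate 3, against between 1.65 and 2.39 FPKM elsewhere. THRA, a thyroid hormone receptor, and CRYM, which binds the hormone in the cytosol, had means of 96.5 and 97.5 FPKM and differences of -0.04 and -0.17. DIO3, which inactivates thyroid hormone, had 0.50, 0.82 and 0.64 FPKM at puberty and 0.98, 1.37 and 1.14 FPKM in prepubertal goats, without overlap, and a difference of -0.39 (standard error 0.13).

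In prolactin signalling, 0 of 7 tested genes had an adjusted p-value under 0.05 in limma, and 2 were higher and 0 lower at an unadjusted p-value under 0.05, against 3.51% and 1.65% of all genes. Of these, SOCS3, a feedback inhibitor of cytokine receptors, had 1.32, 1.92 and 1.87 FPKM at puberty and 0.95, 0.81 and 0.83 FPKM before it, by replicate. The stages did not overlap for SOCS3, and its difference was 0.53 (standard error 0.13). JAK2, the kinase bound to the prolactin receptor, had a difference of -0.03. PRL itself and STAT5A were not analysed, since no gene of the mRNA table carried these symbols here. STAT5B fell under the minimum mean FPKM.

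The partners of the remaining genes were also without a call, 0 of 6 for klotho and FGF receptors, 0 of 6 for folate transport, 0 of 17 for water and ion transport families and 0 of 9 for the receptors and phosphatases of lysophosphatidic acid at an adjusted p-value under 0.05 in limma. At an unadjusted p-value under 0.05 these lists held 0, 0, 2 and 1 genes, against 3.51% of all genes higher and 1.65% lower. The 2 were AQP7, an aquaglyceroporin, and CLIC2, a relative of CLIC6, both lower in pubertal goats, with differences of -0.42 and -0.37 (standard errors 0.16 and 0.15). The 1 was PLPP2, a lipid phosphate phosphatase, with 11.4, 13.4 and 13.7 FPKM at puberty and 10.4, 7.99 and 10.8 FPKM in prepubertal goats and a difference of 0.37 (standard error 0.14). By level, AQP4 of astrocytes had a mean of 409 FPKM against 0.809 FPKM for AQP1, and FOLR2, a folate receptor of macrophages, had 36.7 FPKM against 0.944 FPKM for FOLR1. FGFR1, a receptor that pairs with klotho, had 19.6 FPKM in pubertal replicate 3, against between 10.7 and 13.1 FPKM in the others.

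Markers of cells near the plexus were measured beside these genes. Of 13 tested ependymal markers, the ciliated cells of the ventricle wall, 0 had a pubertal mean above the prepubertal one, against 49.8% of all genes, 0 had an adjusted p-value under 0.05 and 2 were lower at an unadjusted one, against 1.65% of all genes, with a median difference of -0.16. None of the 13 was at least 1 on the log2 scale above the median of the other libraries in any library. In pubertal replicate 3, where TTR was highest, their median difference from the other libraries was 0.10, against between -0.26 and 0.17 in the others, while their summed level was lowest, at 97.7 FPKM, of which CCDC153 made up 43.5 FPKM. Leptomeningeal markers had a pubertal mean above the prepubertal one in 11 of 12 genes, against 49.8% of all genes, with a median difference of 1.03, and 0.39 without pubertal replicate 3, 0 of 12 at an adjusted p-value under 0.05 and 5 higher at an unadjusted one, against 3.51% of all genes. DCN, a proteoglycan of fibroblasts, had 48.3, 40.3 and 86.9 FPKM at puberty and 16.1, 28.2 and 26.1 FPKM in prepubertal replicates 1, 2 and 3. The liver genes ALB and APOH had at most 1.27 and 1.47 FPKM in any library, while APOA1, an apolipoprotein of liver and some other tissues, had 904 FPKM in pubertal replicate 3, against between 124 and 178 FPKM in the others. Their part in the level of TTR was not tested.

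**Figure D5:**
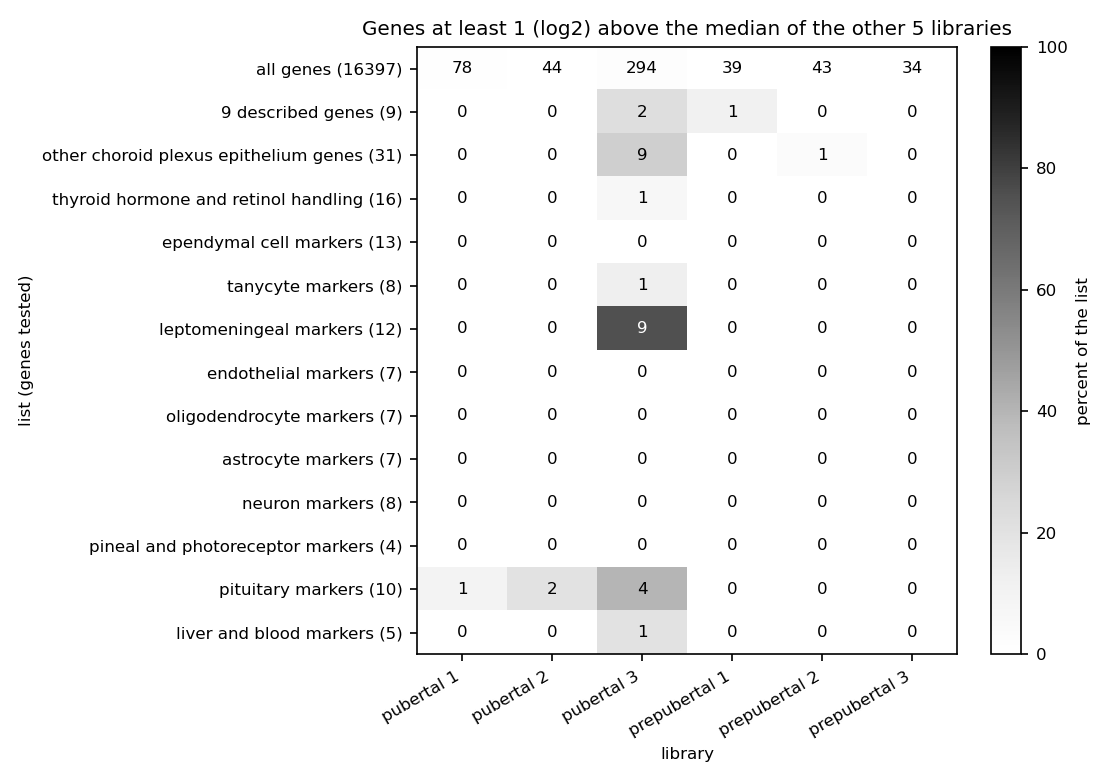
Number of genes at least 1 on the log2(FPKM + 1) scale above the median of the other 5 libraries (figures in the cells) and their share of each list in percent (shading, 0 to 100), for 6 libraries. Pubertal replicate 3 holds 9 of 12 leptomeningeal markers, 9 of 31 other choroid plexus genes and 4 of 10 pituitary markers, and prepubertal replicate 1 holds TTR alone among the lists.

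ENPP2 was set beside oligodendrocyte markers, since both cell types make it. The summed FPKM of 7 tested oligodendrocyte markers lay between 1374 and 2055, and its 2 highest libraries, prepubertal replicate 3 and pubertal replicate 1, were also the 2 highest for ENPP2. Pearson r over the 6 libraries between ENPP2 and the 7 markers lay between 0.39 for CLDN11 and 0.77 for OPALIN, and Spearman rho between 0.60 and 0.77, as a description over the same 6 libraries. None of the 7 markers had an adjusted p-value under 0.05, with 0 also at an unadjusted one.

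Genes most like TTR were sought among 883 genes with a mean of at least 1 FPKM and a range of at least 1 on the log2 scale, and 8 of them had r above 0.9 over the 6 libraries. Of the 883 genes, 417 were highest in pubertal replicate 3, as TTR was. AGMO, which cleaves ether lipids, came first with r = 0.98 and rho = 1, at 1.35, 0.758 and 5.34 FPKM at puberty and 2.34, 1.74 and 0.842 FPKM in prepubertal replicates 1, 2 and 3. It ranked the 6 goats in the order of TTR, as did NPR3, the clearance receptor of natriuretic peptides, with r = 0.96. Their r without pubertal replicate 3 was 0.96 and 0.97, and 0.93 and 0.95 without the 2 libraries farthest from the median of TTR, pubertal replicate 3 and prepubertal replicate 1. Both genes were picked by r over the same 6 libraries, so these values are a description only. Next after NPR3 came LOC102168886 (r = 0.96, rho = 1), gene 106502230 (r = 0.94, rho = 0.89), gene 106503489 (r = 0.93, rho = 0.83) and LOC106503978 (r = 0.92, rho = 1). The other named genes among the 10 most alike were AASS, an enzyme of lysine breakdown (r = 0.91), PERP, a protein of epithelial junctions (r = 0.91), EMP3, a membrane protein (r = 0.90), and CD55, which restrains complement (r = 0.89). Without pubertal replicate 3 these had r = 0.80, 0.88, 0.73 and 0.70, and without the 2 farthest libraries 0.16, 0.60, 0.49 and 0.84. PERP had 29.96 FPKM in pubertal replicate 3, 6.98 FPKM in prepubertal replicate 1 and between 3.78 and 5.49 FPKM in the others. With r on FPKM in place of log2(FPKM + 1), 2 of the 10 genes were again among the 10 most alike. None of the other 8 genes met the minimum and range required here. MFRP of the choroid plexus list, with r = 0.94 and rho = 0.94, was below the minimum at a mean of 0.303 FPKM. Its r was 0.90 without pubertal replicate 3 and 0.66 without the 2 farthest libraries.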

How the data were processed

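For alignment of the paired-end reads the authors used TopHat, and for assembly Scripture together with Cufflinks (version 2.1.1 in the submitters' processing notes). They deposited FPKM values per transcript and library, as the authors' own estimates. The genome build is not given in the sources used here. The authors' deposited comparison of the groups (group FPKM, fold changes, p- and q-values) was used only for transcript length and to pair transcripts with genes. Of the columns of single samples, 0 were left unused. The deposited values hold no read counts per gene, and the read totals the study lists are not used here, so no counting interval is given. Per label, each group had 3 samples, 1 goat each.

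FPKM was summed by gene. Symbols came from a RefSeq table of the ARS1.2 assembly (19125 of 20225 genes, 94.6%), used for names only. Stages were compared two-sided by limma 3.58.1 under R 4.3.3, with an intensity trend in eBayes, on log2(FPKM + 1), over genes with a mean of at least 0.1 FPKM, with Benjamini-Hochberg adjustment over all genes and a threshold of 0.05, and was tested on simulated data. Fold changes on this scale understate low genes. An exact permutation test of 3 against 3 cannot give a p-value under 0.1. Summaries and plots were made in Python 3.11.15 with pandas 2.3.3 and matplotlib 3.10.9.

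The 9 genes and all lists were chosen with earlier results of these data known. Named were the 9 genes, up to 3 genes of each list with the highest mean and up to 3 with the largest difference, and the 10 genes and 5 lncRNA transcripts most like TTR by Pearson r. The other list genes named, the excess over the other 5 libraries and the comparison of ENPP2 with oligodendrocyte markers were chosen after values were seen. The alternatives comprised 0.1 as pseudocount, either no minimum or 1 FPKM, quantile normalization, centring on the median, limma without a trend, the replicate number as a block, the most abundant transcript, and leaving out each library. Some genes of the lists are not reported here.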

Additional observations from a re-analysis of the deposited data

How the results depend on the processing

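The count of 0 genes with an adjusted p-value under 0.05 in limma became 1 with the replicate number as a block, and ran from 0 to 4 with 1 library left out, 4 without pubertal replicate 2 and 1 without prepubertal replicate 2 or 3. None of these was among the 9 genes or the other choroid plexus genes, whose count was 0 in every alternative run. The pituitary list went from 0 to 1 without prepubertal replicate 2. At an unadjusted p-value under 0.05 the 846 genes ran from 500 without prepubertal replicate 1 to 2220 without pubertal replicate 1, the 9 genes from 0 to 1 (1 also with no minimum FPKM), and the 7 other choroid plexus genes from 4 with a minimum of 1 FPKM to 9 without pubertal replicate 1. Same-numbered goats did not deviate together (r = -0.029, -0.11 and 0.088 for numbers 1, 2 and 3), so the replicate block is no pairing, and with it 847 genes had an unadjusted p-value under 0.05.

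Besides the single libraries named above, centring on the median and quantile normalization changed the sign of FOLR1 and PRLR, as did a pseudocount of 0.1 for FOLR1 and the most abundant transcript for PRLR. A pseudocount of 0.1 moved the difference of CLIC6 from 0.31 to 1.37 and that of SLC4A5 from 0.24 to 0.57. The causes were not tested. CLIC6, SLC4A5, AQP1 and FOLR1, with means under 1 FPKM, have no value with a minimum of 1 FPKM, and the precision that depth gives them was not measured.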

Other observations

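Pituitary markers, chosen for tissue that adjoins the hypothalamus, had 4 of 10 tested genes higher and 0 lower at an unadjusted p-value under 0.05, against 3.51% and 1.65% of all genes, and 0 at an adjusted one in limma. CGA, the subunit shared by glycoprotein hormones, had 50.1, 62.5 and 39.4 FPKM at puberty and 2.24, 18.0 and 3.32 FPKM in prepubertal replicates 1, 2 and 3, a difference of 2.98 (standard error 0.58) on the log2(FPKM + 1) scale that did not rest on pubertal replicate 3 (3.15 without it). POMC had 429 FPKM in pubertal replicate 3, against between 22.9 and 85.1 FPKM in the others, and GH1, growth hormone, had 7.79 FPKM in that library and was listed at 0 in the other 5. Whether cells of the pituitary or of the hypothalamus itself gave the POMC was not tested. Of the remaining marker lists, 0 genes had an adjusted p-value under 0.05, and at an unadjusted one 1 of 8 tanycyte, 2 of 7 endothelial, 1 of 7 astrocyte, 0 of 8 neuron, 0 of 5 liver and blood and 1 of 4 pineal genes did, against 3.51% of all genes higher and 1.65% lower. The tanycyte gene VIM, an intermediate filament that many glia and fibroblasts hold, had 469 FPKM in pubertal replicate 3, against between 176 and 303 FPKM in the others.

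Among 480 lncRNA transcripts that met the same minimum and range, 4 had r above 0.9 with TTR. The 5 most alike, TCONS_01376083, TCONS_03918306, TCONS_02097854, TCONS_02479533 and TCONS_04115770, were between 229 and 269 nt long. Pubertal replicate 3 and prepubertal replicate 1 were above 0 in all 5, with 4.74 and 2.40 FPKM for TCONS_01376083, and TCONS_02479533 was also above 0 in prepubertal replicate 2, at 3.99 FPKM. In the other libraries all 5 were listed at 0. Without pubertal replicate 3, r was 0.84 for TCONS_01376083, with prepubertal replicate 1 its only library above 0. The 5 were picked by r over the same 6 libraries, so these values are a description only.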
